A study of Mus musculus with 6 samples.

Results

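The genes described here mark the resident macrophages of the liver, the Kupffer cells, and the other leukocytes that pass through or reside in it. They were taken from a list of 39 marker genes, and every probe set whose only gene symbol in the array annotation is on that list was used. This gave 45 probe sets of 36 genes, out of 22626 probe sets and 12393 genes measured. Timd4 and Lck, together with Klrb1c, whose probe set is shared with other symbols, were not analysed here. The genes fall into 17 macrophage markers, 4 pan-leukocyte markers, 3 B cell markers, 8 T and NK cell markers and 4 neutrophil markers. Within macrophage markers are counted Aif1, Tyrobp, Itgam and Itgax, which other myeloid cells express as well.

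Liver RNA came from male DUhTP (marathon) mice, a line bred over many generations for endurance on the treadmill, and from the unselected control line DUC. Both lines go back to crosses among several outbred and inbred founder stocks and are kept as non-inbred populations, and all mice were 70 days old. Each line was represented by 3 Affymetrix arrays. The methods describe them as pools of mice, while the array titles give only the line and a number. The spread given is thus that among arrays. Values are PLIER intensities, linear summaries of the probes of a probe set without a unit. The median intensity over all probe sets and arrays was 56.0, and a probe set with a lower mean is called dim.

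Kupffer cells line the liver sinusoids, where they take up particles, worn blood cells and microbes from portal blood. Their survival depends on signalling through the receptor encoded by Csf1r, and in the mouse Clec4f is a lectin largely restricted to them. Lymphocytes, NK cells and neutrophils form the rest of the hepatic leukocytes and are scarce in whole liver compared with hepatocytes. The Kupffer cell genes Clec4f, Cd5l, Vsig4, Csf1r and Adgre1 all read above the array-wide median here, while the macrophage marker Marco was dim. In all, 21 of the 36 members were dim, among them the 3 B cell genes and 7 of the 8 T and NK cell genes. In RNA of whole tissue, fewer cells of a type and less RNA per cell cannot be told apart.

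Clec4f and Spn were the members that differed between the lines in the test without an added constant, and both were higher in DUhTP mice. Clec4f read 588, 724 and 624 on the DUhTP arrays 1, 2 and 3 and 346, 259 and 285 on the DUC arrays. All 3 DUhTP arrays thus lay above all 3 DUC arrays, with a fold change (FC) of 2.18 (log2 fold change 1.13, standard error 0.16, limma adjusted p = 0.0320). Spn, which encodes the leukocyte surface sialoglycoprotein CD43, read 19.8, 26.4 and 30.0 in DUhTP and 11.7, 12.3 and 10.5 in DUC mice. It had an FC of 2.19 (standard error of the log2 value 0.18, adjusted p = 0.0441), but was dim on every array, and its FC was 1.5 with 16 added to all intensities. In total 2 of 36 members passed, against 3.32% of all genes, with 2 higher (1.92% of all genes) and 0 lower (1.40% of all genes). At an unadjusted p under 0.05 were 17 of the 45 probe sets, 14 higher and 3 lower, which is 37.8% against 21.1% of all probe sets. Either call was lost when any 1 of the 6 arrays was left out, with an adjusted p between 0.0708 and 0.137 for Clec4f and between 0.0548 and 0.160 for Spn.

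**Figure D1:**
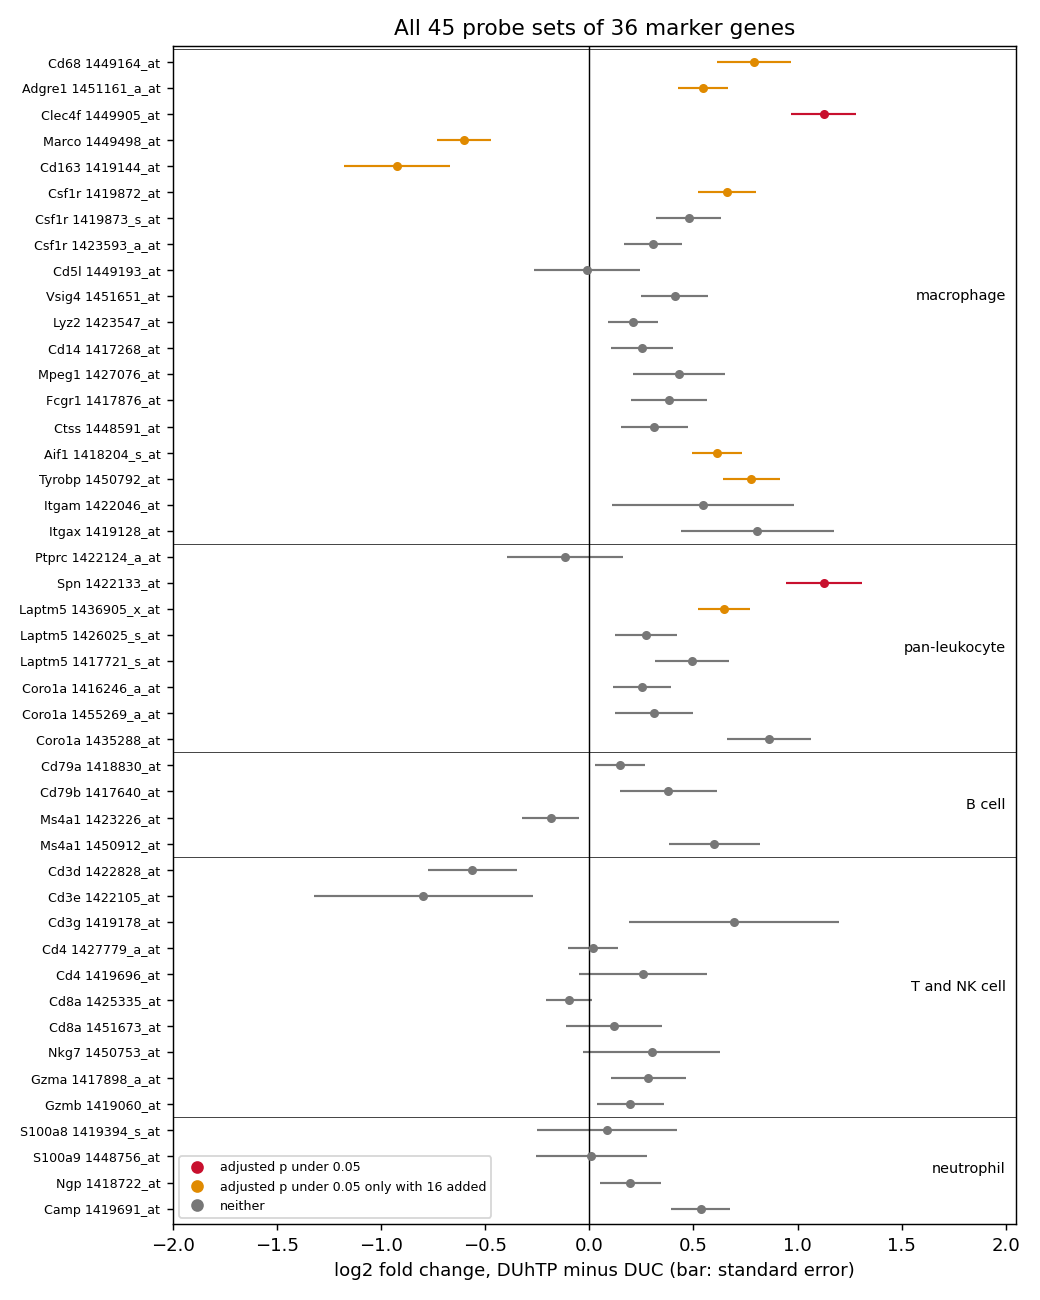
Log2 fold change (x axis, DUhTP minus DUC) with its standard error for each of the 45 probe sets (y axis), grouped by cell type. Red points passed an adjusted p under 0.05 and orange points did so only with 16 added to the intensities. Most macrophage markers lie right of 0, while Marco and Cd163 lie left of it.

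Adding 16 to every intensity before the log, which damps differences among dim probe sets, brought 10 of the 36 members past the test, 8 higher and 2 lower in DUhTP mice. This is 27.8% of the members against 11.3% of all genes, with 22.2% higher against 5.31% of all genes. The 2 lower are 5.56% of the members, near the 6% of all genes. The 8 that rose were Clec4f, Csf1r, Cd68, Adgre1, Tyrobp, Aif1, Laptm5 and Spn. The 2 that fell were the scavenger receptors Marco and Cd163. Without the dimmest 33.3% of probe sets 9 of the 25 members left passed, 7 higher and 2 lower, against 15.0% of the genes left. A variance trend in limma gave 8 of 36, 7 higher and 1 lower, against 13.2% of all genes. With 16 added, dropping the DUhTP arrays 1, 2 and 3 in turn gave counts of 8, 10 and 5, and dropping the DUC arrays gave 4, 2 and 3. The share of all genes that passed in these cases was 9.17%, 9.14% and 8.88% and then 5.62%, 4.52% and 4.48%. Clec4f and Tyrobp passed in each of these 6 cases, and Csf1r in all but that without DUC array 2 (adjusted p = 0.0702). Cd68 was lost without DUhTP array 3 or DUC array 2 or 3, Adgre1 without DUhTP array 3 or any DUC array, Laptm5 and Spn without any DUC array, and Aif1 without any of the 6, with adjusted p up to 0.0932, 0.116, 0.0895, 0.0823 and 0.152.

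**Figure D2:**
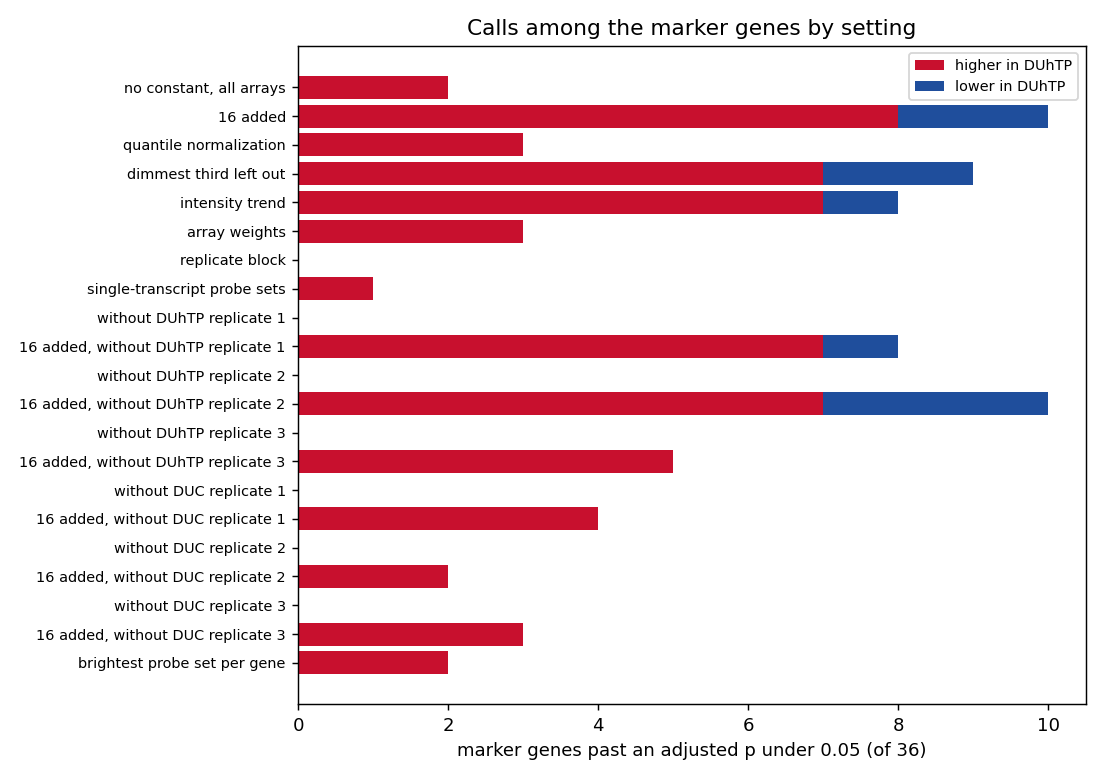
Number of marker genes past an adjusted p under 0.05 (x axis, out of 36) under each setting (y axis), split into genes higher (red) and lower (blue) in DUhTP mice. The count was 2 without a constant, 10 with 16 added and 0 without any 1 array when no constant was added.

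Promoter sequences of 6 of these members are shown, chosen from those that passed in either direction with 16 added: Clec4f, Spn, Cd68 and Laptm5 were higher in DUhTP mice and Marco and Cd163 lower. Each run is the 250 bases before an annotated start, taken from RefSeq for GRCm38.p6, the reference genome of C57BL/6J mice and not of the lines studied here. The windows lie at chr6:83656117-83656366, minus strand (Clec4f), chr7:127137824-127138073, minus strand (Spn), chr11:69666171-69666420, minus strand (Cd68), chr4:130913066-130913315, plus strand (Laptm5), chr1:120505025-120505274, minus strand (Marco) and chr6:124304401-124304650, plus strand (Cd163). Those of Laptm5 and Spn lie within the annotated genes, which span chr4:130912890-130936148 and chr7:127123637-127145552. That of Cd163 overlaps its gene, which begins at base 124304636. Capitals mark the letters GAGGAA, the core bound by the myeloid factor PU.1, on either strand (TTCCTC when read on the other).

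Clec4f: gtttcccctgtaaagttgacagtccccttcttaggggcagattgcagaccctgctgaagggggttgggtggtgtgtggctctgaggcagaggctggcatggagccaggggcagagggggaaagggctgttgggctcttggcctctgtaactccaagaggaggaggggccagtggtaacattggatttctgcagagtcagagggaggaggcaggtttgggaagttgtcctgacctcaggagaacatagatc
Spn: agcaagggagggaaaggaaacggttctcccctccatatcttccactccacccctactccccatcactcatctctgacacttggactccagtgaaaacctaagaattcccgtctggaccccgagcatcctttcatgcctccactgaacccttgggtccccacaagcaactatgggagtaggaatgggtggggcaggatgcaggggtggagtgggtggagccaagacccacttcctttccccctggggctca
Cd68: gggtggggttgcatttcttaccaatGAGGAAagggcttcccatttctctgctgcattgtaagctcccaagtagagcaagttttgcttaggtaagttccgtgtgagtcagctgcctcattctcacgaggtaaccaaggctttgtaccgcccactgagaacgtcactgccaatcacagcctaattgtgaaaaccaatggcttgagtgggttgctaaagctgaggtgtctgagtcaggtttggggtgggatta
Laptm5: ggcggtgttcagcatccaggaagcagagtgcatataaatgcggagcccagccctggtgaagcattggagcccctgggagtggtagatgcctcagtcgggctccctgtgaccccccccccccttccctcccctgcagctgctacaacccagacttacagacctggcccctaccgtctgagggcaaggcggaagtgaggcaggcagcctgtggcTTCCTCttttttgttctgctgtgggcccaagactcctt
Marco: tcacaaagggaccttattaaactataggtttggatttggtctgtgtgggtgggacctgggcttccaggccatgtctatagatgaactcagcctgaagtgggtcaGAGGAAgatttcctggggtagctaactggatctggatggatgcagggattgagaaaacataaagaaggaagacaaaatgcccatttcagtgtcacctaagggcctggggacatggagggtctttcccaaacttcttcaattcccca
Cd163: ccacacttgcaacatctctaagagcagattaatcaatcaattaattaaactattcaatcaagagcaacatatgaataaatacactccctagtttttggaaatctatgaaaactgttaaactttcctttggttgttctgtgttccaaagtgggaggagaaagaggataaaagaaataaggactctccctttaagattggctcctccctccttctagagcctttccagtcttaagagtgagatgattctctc

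Of the 36 members 29 had promoter windows in that source, 31 windows in all. GAGGAA was found on either strand in 15 of the 31, or 48.4%, against 23.3% of all 32851 windows of this length. Among the macrophage markers it was in 8 of 13 windows, or 61.5%. Of the windows shown, those of Cd68, Laptm5 and Marco hold it and those of Clec4f, Spn and Cd163 do not. Windows with and without it occur in both directions of difference. The AP-1 motif, searched as TGANTCA with any base at N, was in 3 of 31 member windows, or 9.68% against 6.75% of all. TGGGAA, the core bound by RBPJ, was in 9 of 31, or 29.0% against 21.6% of all. The search letters of these 3 motifs do not contain each other.

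Among the lineage genes of macrophages, the growth factor receptor Csf1r read 891, 1111 and 995 in DUhTP and 671, 561 and 661 in DUC mice on its brightest probe set, 1419872_at. The lines did not overlap, with an FC of 1.58 (adjusted p = 0.0731, and 0.0135 with 16 added). Its probe sets 1419873_s_at and 1423593_a_at had an FC of 1.39 and 1.24 (adjusted p = 0.167 and 0.281), and on the last of them the lines overlapped.

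Cd68, a glycoprotein of macrophage lysosomes, read 79.8, 106 and 106 in DUhTP and 65.9, 50.6 and 51.7 in DUC mice. Its FC was 1.73 (adjusted p = 0.0839, and 0.0201 with 16 added). Adgre1, the adhesion receptor by which mouse macrophages are commonly stained, read 209, 209.7 and 238 against 147, 139 and 164. Its FC was 1.46 (adjusted p = 0.0819, and 0.0263 with 16 added). In both genes each DUhTP array lay above each DUC array.

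Tyrobp, an adaptor through which activating myeloid and NK cell receptors signal, read 289, 302 and 256 in DUhTP and 185, 164 and 146 in DUC mice. Its FC of 1.71 had an adjusted p of 0.0532, just short of the threshold, and it passed with quantile normalization (adjusted p = 0.0483), array weights (0.0452) and 16 added (0.00724). Aif1, an actin-binding protein of macrophages, read 41.5, 45 and 42.9 against 27.0, 26.3 and 31.6. It was dim, without overlap between the lines, with an FC of 1.53 (adjusted p = 0.0636, and 0.0408 with 16 added).

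Marco and Cd163 went the other way. Marco, a scavenger receptor for bacteria and particles, was dim and read 29.4, 36.6 and 31.0 in DUhTP and 47.3, 46.8 and 52.8 in DUC mice. Its FC was -1.52 (adjusted p = 0.0778, and 0.0434 with 16 added). Cd163, the receptor for haemoglobin bound to haptoglobin, read 76.9, 39.1 and 59.9 against 101, 111 and 110.0. Its FC was -1.90 (adjusted p = 0.124, and 0.0273 with 16 added). The DUhTP arrays lay below all DUC arrays for both genes, and Cd163 was the more variable among the DUhTP arrays. With 16 added, the call of Marco held only when DUhTP array 2 was dropped (adjusted p = 0.0367), and was lost on dropping any other array, with adjusted p up to 0.153. That of Cd163 held when DUhTP array 1 or 2 was dropped (adjusted p = 0.00984 and 0.0353) and was lost on dropping any of the other 4, with adjusted p up to 0.103.

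Cd5l and Vsig4, further genes typical of Kupffer cells, did not pass under either scale. Cd5l, a secreted scavenger-receptor-like protein, read 699, 1176 and 1006 in DUhTP and 1188, 779 and 913 in DUC mice, so the lines overlapped entirely (log2 fold change -0.01, standard error 0.25, adjusted p = 0.988). The complement receptor Vsig4 read 549, 544 and 578 against 510.3, 354 and 408, with an FC of 1.33 (adjusted p = 0.221). The cysteine protease Ctss, which processes the invariant chain, read 607, 629 and 637 against 598, 412 and 516, with an FC of 1.24 (adjusted p = 0.332). In Vsig4 and Ctss the lines did not overlap, but DUC replicate 1 lay close to the DUhTP arrays. The other macrophage markers, Lyz2, Cd14, Mpeg1, Fcgr1, Itgam and Itgax, had log2 fold changes from 0.21 to 0.81 and adjusted p values from 0.282 to 0.523. Itgam and Itgax, integrin chains of myeloid and dendritic cells, were at 26.9 or below on every array.

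**Figure D3:**
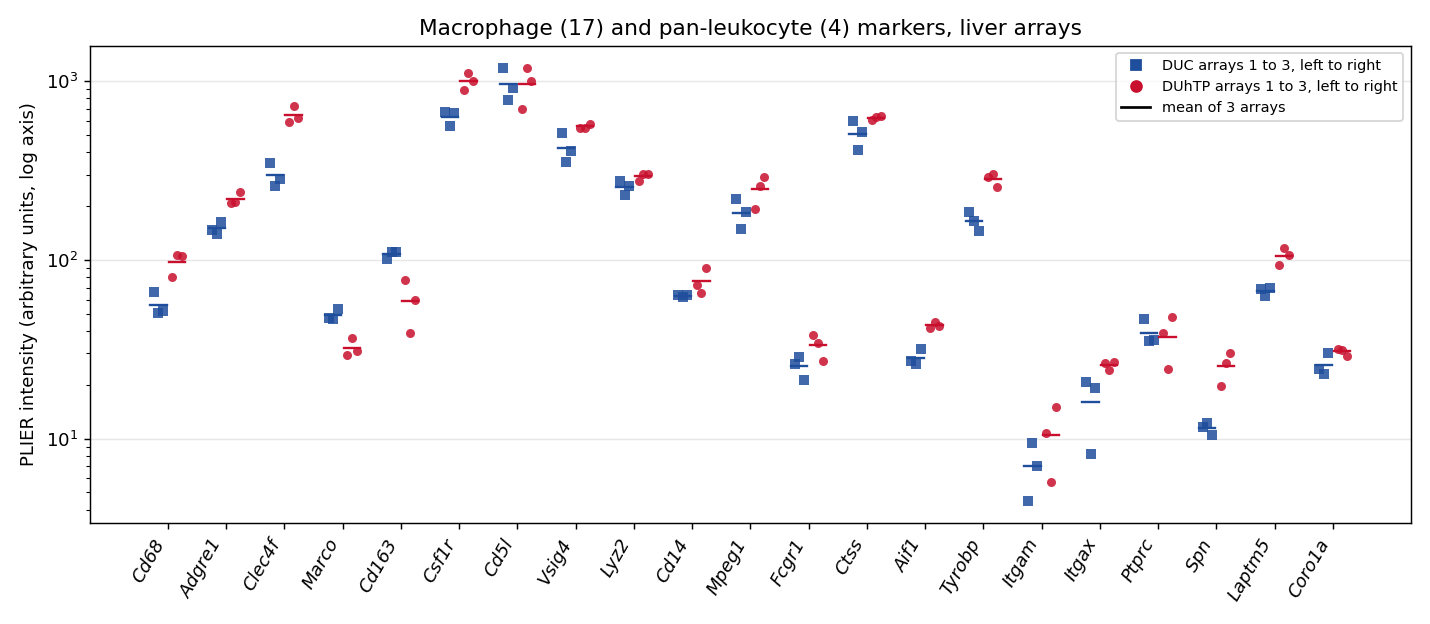
PLIER intensity (y axis, log scale, arbitrary units) of the 17 macrophage and 4 pan-leukocyte markers (x axis, brightest probe set of each) on the 3 DUC arrays (blue squares) and the 3 DUhTP arrays (red circles), with the mean of each line as a bar. Clec4f, Csf1r and Tyrobp show separate lines, Cd5l overlapping ones, and Marco and Cd163 are lower in DUhTP mice.

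Over the 17 macrophage markers the median log2 fold change was 0.43, against 0.00 over all genes, with a range from -0.93 for Cd163 to 1.13 for Clec4f. Of the 17, 14 were above 0, as were 50.2% of all genes, and 3 below it. The lines did not overlap in 12 of the 17, against 31.6% of all genes. These were 10 genes higher in DUhTP mice, or 58.8% against 15.6% of all genes, and 2 genes lower, or 11.8% against 16% of all genes. Over all 36 members the median was 0.29. The lines did not overlap in 13 genes higher, or 36.1% against 15.6% of all genes, and 3 lower, or 8.33% against 16%. The summed intensity of the 17 macrophage genes was 4673, 5613 and 5328 on the DUhTP arrays and 4496, 3388 and 3893 on the DUC arrays, a ratio of the means of 1.33. DUhTP replicate 1 and DUC replicate 1 were thus near each other. Within the DUC line replicate 1 was the highest array for 10 of the 17 genes and replicate 2 the lowest for 13, and within the DUhTP line replicate 1 was the lowest for 10.

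Besides Spn, the pan-leukocyte markers were Laptm5, Coro1a and Ptprc. Laptm5, a lysosomal membrane protein of blood cells, read 94.0, 116 and 106 in DUhTP and 68.8, 62.8 and 69.9 in DUC mice on 1436905_x_at (FC 1.56, adjusted p = 0.0634, and 0.0189 with 16 added). Its 2 dimmer probe sets had an FC of 1.21 and 1.41 (adjusted p = 0.354 and 0.197). The 3 probe sets of Coro1a, an actin regulator of leukocytes, had an FC of 1.19, 1.24 and 1.82 (adjusted p = 0.361, 0.397 and 0.0906) and were dim. Ptprc, the tyrosine phosphatase carried by nearly all leukocytes, read 39.2, 24.4 and 47.9 against 46.5, 35.4 and 35.6 and overlapped between the lines (FC -1.08, adjusted p = 0.851). The median of the 4 genes was 0.45 on the log2 scale.

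No B cell marker passed in limma, with or without 16 added. An unadjusted p under 0.05 was found for 1 of the 4 probe sets, against 21.1% of all probe sets. Cd79a and Cd79b encode the signalling chains of the B cell receptor. Cd79a read 20.8, 24.3 and 25.5 in DUhTP and 21.6, 21.4 and 20.6 in DUC mice (adjusted p = 0.539), and Cd79b read 37.6, 28.9 and 23.3 against 26.4, 18.2 and 24.0 (adjusted p = 0.407). Ms4a1, the membrane protein CD20, read 54.6, 50.7 and 42.1 against 59.9, 53.0 and 54.0 on its brighter probe set (FC -1.14, adjusted p = 0.494), while the dimmer 1450912_at had an FC of 1.52 (adjusted p = 0.199). All 3 genes were dim and overlapped between the lines on their brightest probe sets. Their summed intensity was 91 to 113 in DUhTP and 92.6 to 108 in DUC mice.

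No T and NK cell marker passed either, with or without 16 added. Of their 10 probe sets 1 had an unadjusted p under 0.05, against 21.1% of all probe sets. The CD3 chains of the T cell receptor complex were dim, and their values did not share a direction. Cd3d read 12.3, 8.54 and 7.32 in DUhTP and 14.8, 13.5 and 12.4 in DUC mice (log2 fold change -0.56, adjusted p = 0.214), without overlap but by a narrow margin. Cd3e read 19.3, 43.3 and 11.1 against 34.6, 51.8 and 27.3 (log2 fold change -0.80, standard error 0.53, adjusted p = 0.441). Cd3g read 13.0, 18.8 and 7.32 against 6.47, 4.76 and 13.7 (log2 fold change 0.69, standard error 0.50, adjusted p = 0.483). The arrays of a line differed widely for Cd3e and Cd3g. With 16 added and DUhTP replicate 2 left out, Cd3e had an adjusted p of 0.0470 and was lower in DUhTP mice.

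Cd4, the coreceptor of helper T cells, read 44.4, 49.9 and 40.9 in DUhTP and 46.2, 44.0 and 43.2 in DUC mice (FC 1.01, adjusted p = 0.956), and its dimmer probe set overlapped as well (FC 1.19, adjusted p = 0.686). Cd8a, a chain of the coreceptor of cytotoxic T cells, read 383, 380.0 and 372 against 392, 382 and 443 on 1425335_at (FC -1.07, adjusted p = 0.666). Its second probe set, 1451673_at, was dim at 22.7, 21.5 and 31.7 against 29.6, 19.5 and 21.0 (adjusted p = 0.819). The cytotoxic granule genes Nkg7, Gzma and Gzmb had an FC of 1.23, 1.22 and 1.15 (adjusted p = 0.656, 0.419 and 0.532) and overlapped between the lines. The median log2 fold change of the 8 genes was 0.11, and their summed intensity was 516 to 589.6 in DUhTP and 559 to 606 in DUC mice. On every array most of this sum came from the Cd8a probe set 1425335_at, and the other genes were dim.

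No neutrophil marker passed in limma, with or without 16 added. An unadjusted p under 0.05 was found for 1 of the 4 probe sets, against 21.1% of all probe sets. The calcium-binding proteins S100a8 and S100a9 are abundant proteins of the neutrophil cytosol. S100a8 read 26.0, 35.8 and 53.9 in DUhTP and 27.1, 31.9 and 48.5 in DUC mice (FC 1.06, adjusted p = 0.915). S100a9 read 33.2, 28.8 and 42.8 against 24.6, 44.8 and 36.4 (FC 1.01, adjusted p = 0.990). Within each line the values of these genes differed more than the lines did.

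Ngp and Camp encode granule proteins made by neutrophil precursors. Ngp read 119, 136 and 98.6 in DUhTP and 105, 102 and 99.3 in DUC mice (FC 1.15, adjusted p = 0.496). Camp, the precursor of the cathelicidin peptide, read 16.6, 16.5 and 16.6 against 12.7, 9.57 and 12.2, an FC of 1.45 without overlap between the lines (adjusted p = 0.116, and 0.195 with 16 added). The median log2 fold change of the 4 genes was 0.14.

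**Figure D4:**
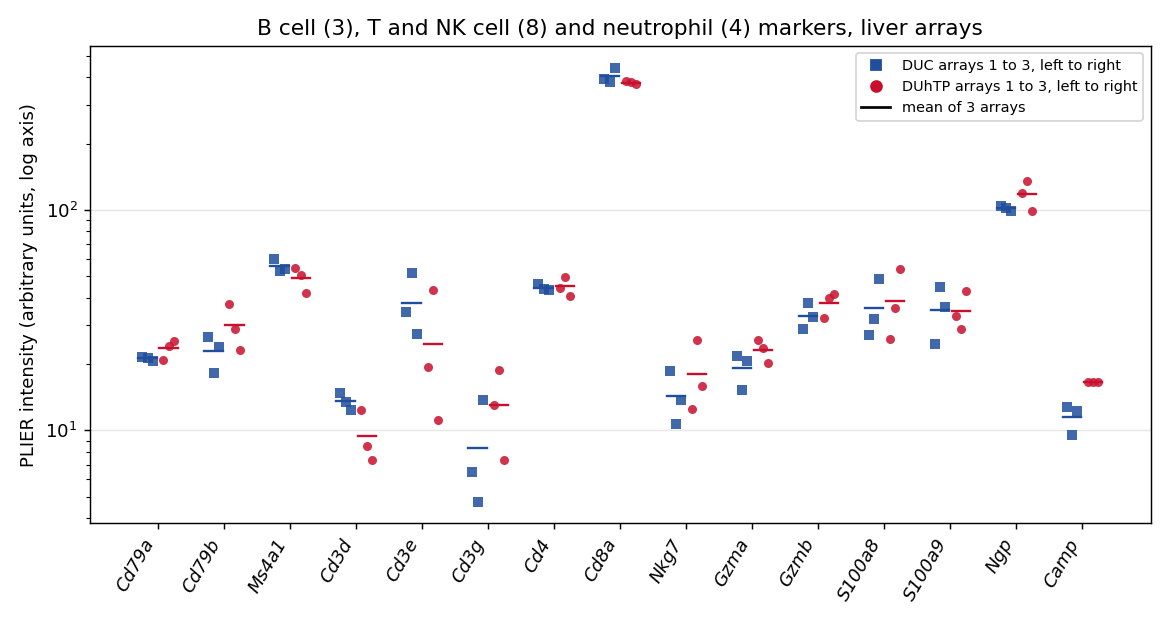
PLIER intensity (y axis, log scale, arbitrary units) of the 3 B cell, 8 T and NK cell and 4 neutrophil markers (x axis, brightest probe set of each) on the 3 DUC arrays (blue squares) and the 3 DUhTP arrays (red circles), with the mean of each line as a bar. The lines overlap for all genes but Cd3d and Camp, both of them dim.

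A further list of 38 macrophage genes was, like the members, chosen with earlier results of these data known. It had a median log2 fold change of 0.21, with 28 above 0 and 10 below it. Of these 38, 2 rose and 0 fell, which is 5.26% against 3.32% of all genes: Ncf4, a subunit of the phagocyte oxidase, at 68.3, 63.0 and 68.3 in DUhTP and 34.6, 37.8 and 40.4 in DUC mice (FC 1.77, adjusted p = 0.0316), and the chemokine receptor Cx3cr1 on its dim probe set 1450019_at (FC 2.82, adjusted p = 0.0426). The brighter Cx3cr1 probe set, 1450020_at, showed an FC of -1.05 (adjusted p = 0.895). After addition of 16, 5 of the 38 rose and 1 fell, which is 15.8% against 11.3% of all genes. Among them the complement component C1qa, which macrophages secrete, read 756, 906 and 701 against 562, 428 and 446 (FC 1.65, adjusted p = 0.0869, and 0.0166 with 16 added). The chemokine Ccl6 was the gene that fell, with an FC of -1.49 and -2.64 on its 2 probe sets (adjusted p = 0.0661 for each without a constant, and 0.0292 and 0.00699 with 16 added). The lines did not overlap for 13 of the 38 genes higher in DUhTP mice, or 34.2% against 15.6% of all genes, and for 1 lower, or 2.63% against 16% of all genes.

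The further lists for the other leukocytes showed smaller medians. Of 13 more B cell genes 0 passed, and 3 of 28 probe sets had an unadjusted p under 0.05, against 21.1% of all probe sets. With 16 added only the tetraspanin Cd37 passed, or 7.69% against 11.3% of all genes (FC 1.83, adjusted p = 0.102, and 0.0448 with 16 added). Of 27 more T and NK cell genes and 17 more neutrophil genes 0 passed in limma, with or without 16 added. Of all genes 3.32% passed without it and 11.3% with it. In both lists 0 probe sets had an unadjusted p under 0.05. On their brightest probe sets 23 of the 27 and 14 of the 17 genes were dim. The median log2 fold changes of the further B cell, T and NK cell and neutrophil lists were 0.10, 0.11 and 0.10.

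MHC class II genes, which macrophages, B cells and dendritic cells express to present antigen, had the highest median of the lists compared, 1.06 on the log2 scale. Of these genes 4 of 8 rose, or 50.0% against 1.92% of all genes. H2-Aa had an FC of 2.66 (adjusted p = 0.0166), H2-Eb1 one of 3.75 (adjusted p = 0.0199) and H2-Ab1 one of 2.13 (adjusted p = 0.0411), and H2-Ea was at 5.65, 1.26 and 4.30 in DUC mice against 402, 492 and 444 in DUhTP mice on its brightest probe set (adjusted p = 0.0103). H2-Ea had an adjusted p from 0.00993 to 0.0617 when arrays were dropped in turn, and H2-Aa one from 0.0429 to 0.0925. Ncf4, Cx3cr1, H2-Ab1 and H2-Eb1 lost their calls on dropping any array, with the lowest adjusted p at 0.0688, 0.0704, 0.0576 and 0.0519.

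**Figure D5:**
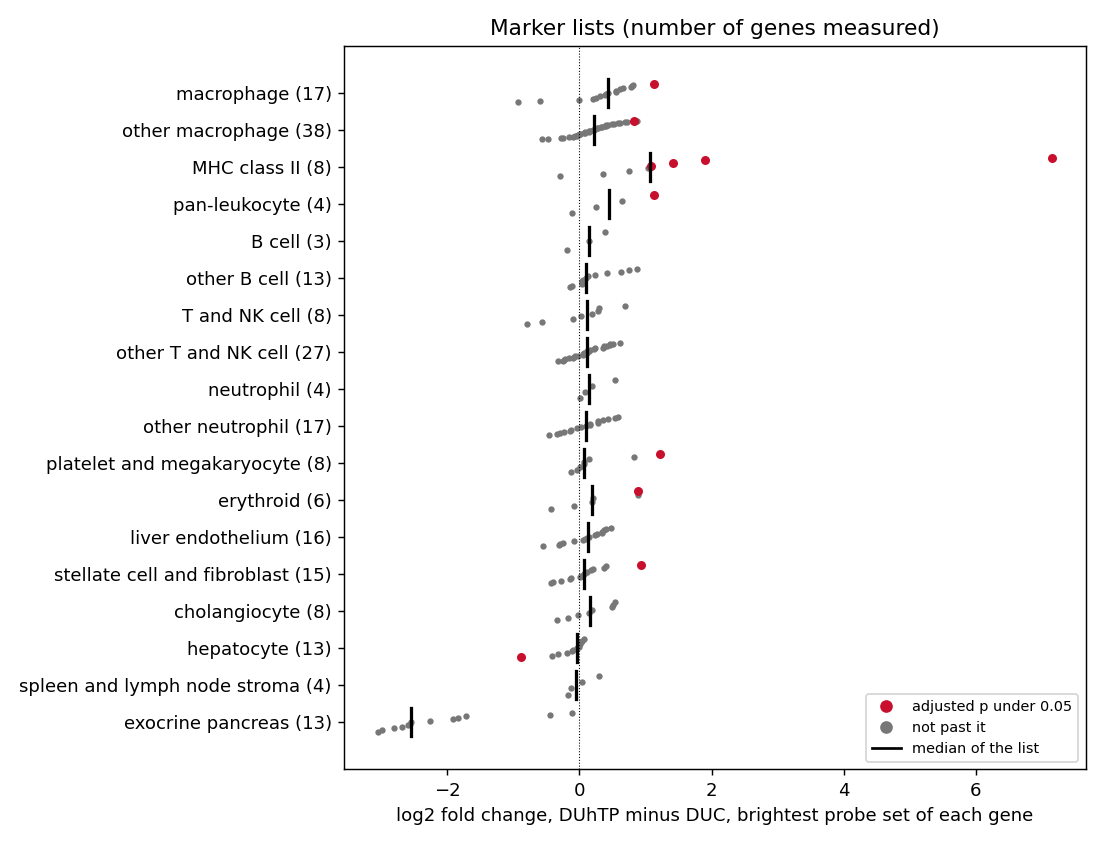
Log2 fold change (x axis, DUhTP minus DUC) of the brightest probe set of each measured gene in 18 marker lists (y axis, number of genes in brackets), with the median of a list as a bar and genes past an adjusted p under 0.05 in red. The macrophage median is 0.43 and the exocrine pancreas median -2.55. Cx3cr1 passed on a dimmer probe set and is not red here.

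Markers of other cells in the tissue also differed between the arrays. The 13 exocrine pancreas genes, none of them at 0 on any array, had a median log2 fold change of -2.55, and their summed intensity was 1172 to 4759 in DUhTP and 5612 to 10805 in DUC mice, lowest in DUhTP replicate 2. Of the 13, 0 passed without a constant, against 3.32% of all genes. With 16 added 8 fell, or 61.5% against 6% of all genes. Erythroid genes summed to 1521 to 1914 in DUhTP and 933 to 1034 in DUC mice. Of 6 measured 1 rose, or 16.7% against 1.92% of all genes, the haem synthesis enzyme Alas2 (FC 1.85, adjusted p = 0.0499). Of 8 platelet genes 1 rose, or 12.5% against the same 1.92%, the chemokine Ppbp (FC 2.34, adjusted p = 0.0338), which was dim. The median log2 fold change of the 8 was 0.067. The part of these other cells in the difference of the macrophage markers was not tested.

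Further lists held the other cells of the liver. The median log2 fold change was 0.13 for 16 genes of liver endothelium, 0.07 for 15 genes of stellate cells and fibroblasts, 0.16 for 8 genes of cholangiocytes and -0.03 for 13 genes of hepatocytes. It was -0.05 for 4 genes of the stroma of spleen and lymph node. The endothelial list shares Mrc1 and Fcgr2b with the further macrophage list. The collagen Col3a1 rose (FC 1.91, adjusted p = 0.0434) and the hepatocyte enzyme Tat fell (FC -1.84, adjusted p = 0.0370). These calls and those of Alas2 and Ppbp were lost on dropping any array, with adjusted p from 0.0654 upwards. The summed intensity of hepatocyte markers was 124271 to 125885 in DUhTP and 129670 to 136273 in DUC mice, and that of endothelial markers 5063 to 5560 in DUhTP and 4613 to 4806 in DUC mice. Cholangiocyte markers summed to 2950 to 3352 in DUhTP and 2492 to 2634 in DUC mice, a ratio of the means of 1.21. No sum was tested.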

How the data were processed

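Liver RNA of DUhTP and DUC mice, 3 arrays per line, was measured on Affymetrix mouse arrays. Global scaling in GCOS 1.1.1 was followed by PLIER summaries of the probe sets in Array Assist, so the values deposited by the authors are linear intensities, and the PLIER version and any added constant are not given in the sources used here. Of 22690 probe sets 64 controls were left out. Of the others 20380 carry 1 symbol, of which 20351 matched RefSeq by gene number. Intensities were logged to base 2 and the lines compared in limma 3.58.1 (R 4.3.3) with lmFit and eBayes, unpaired, with Benjamini-Hochberg adjustment over all 22626 probe sets at 0.05. A gene was called when at least 1 of its probe sets passed. Medians and overlaps use the brightest probe set of a gene. Per-array values are given for members that passed with or without 16 added, for the 2 brightest genes of each group and for a set of lineage genes. Values of a few further members and of genes from the other lists were chosen after they were seen. The members and all lists were chosen with earlier results of these data known. The procedure was checked on simulated data. Alternatives were 16 added, quantile normalization, the dimmest 33.3% left out (29 of the 45 member probe sets stayed), a variance trend, array weights, a replicate block, probe sets of single transcripts, the brightest probe set of a gene and leaving out each array in turn, the last also with 16 added, which was chosen after seeing the data. The median intensity of an array was 53.1 to 57.0 and the lowest correlation within a line 0.959. The methods describe pools of mice, which the array titles do not mention. The p-values measure only the spread among arrays, and the number of arrays limits the precision. No group reached the 4 arrays needed to look for single outlying arrays.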

Additional observations from a re-analysis of the deposited data

How the results depend on the processing

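The count of members past the test was 10 with 16 added, 9 without the dimmest 33.3%, 8 with a variance trend, 3 with quantile normalization or array weights, 2 with the brightest probe set only, 1 with probe sets of single transcripts and 0 with a replicate block, against 2 as reported. In the same order 11.3%, 15.0%, 13.2%, 4.22% (quantile), 4.20% (weights), 2.70%, 2.22% and 0 of the genes tested passed, against 3.32%. Members tested were 36, but 25 without the dimmest 33.3% and 30 with probe sets of single transcripts. Without any 1 array the count was 0 in every case, with 0.01% to 0.79% of all genes, and with 16 added it was 8, 10 and 5 without DUhTP array 1, 2 and 3 and 4, 2 and 3 without DUC array 1, 2 and 3. Array numbers are not known to pair the lines (correlation of same-numbered deviations 0.00341, 0.00480 and 0.0667), and with the replicate block the adjusted p was 0.147 for Clec4f and 0.149 for Spn. The cause of these shifts was not tested. The median log2 fold change of the macrophage markers stayed between 0.38 and 0.53. That of the pan-leukocyte markers was 0.35 with 16 added, 0.25 without the dimmest 33.3% and 1.0 with probe sets of single transcripts, and 0.39 to 0.52 without any 1 array. The value from single transcripts rests on 2 genes. The B cell median was -0.19 without the dimmest 33.3%, which left 1 gene, and 0.08 to 0.20 without any 1 array. The T and NK cell median ranged from -0.025 to 0.12 and the neutrophil median from 0.06 to 0.26 without any 1 array. Genes near 0 changed sign: Cd5l to 0.015 with quantile normalization, S100a8 to -0.039 and S100a9 to -0.023 with array weights. With 16 added, dropping an array moved Cd5l to 0.20 (DUhTP 1) and 0.15 (DUC 1), Ptprc to 0.11 (DUhTP 2) and 0.022 (DUC 1), Cd4 to -0.044 (DUhTP 2) and -0.0020 (DUC 3), S100a8 to -0.13 (DUhTP 3) and -0.059 (DUC 1), and S100a9 to -0.11 (DUhTP 3) and -0.16 (DUC 1). Without any 1 array and no constant the log2 fold change ranged from -0.17 to 0.20 for Cd5l, -0.33 to 0.16 for Ptprc, -0.060 to 0.084 for Cd4, -0.19 to 0.34 for S100a8 and -0.23 to 0.20 for S100a9. No member with a call under any setting run changed direction under another. Dim probe sets limit what can be seen of lymphocytes and neutrophils.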
